A study of Mus musculus with 4 samples.

Results

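The transcripts described here encode the NF-κB transcription factor subunits and the inhibitors that NF-κB itself induces. They were chosen by gene symbol and comprise 10 of the 25239 gene symbols counted in lung tumor-infiltrating CD4+ T cells: *Nfkb1*, *Nfkb2*, *Rel*, *Rela*, *Relb*, *Nfkbia*, *Nfkbie*, *Nfkbid*, *Tnfaip3* and *Bcl3*. RNA-Seq libraries came from WT (2 libraries) and CD4/ALK4-KO mice (2 libraries), all from young adult male mice on the C57BL/6 background that carried lung tumors of intravenously inoculated LLC-OVA cells, which are Lewis lung carcinoma cells made to express ovalbumin. The CD4/ALK4-KO mice had the genotype CD4CreERT2+/-/Acvr1bfl/fl, in which tamoxifen activates a Cre recombinase driven by the *Cd4* promoter and deletes *Acvr1b*, the gene of the activin receptor ALK4, in cells that express *Cd4*. Whether the WT mice carried the Cre transgene or received tamoxifen, and whether animals were pooled, is not given in the sources used here. The labels place tumor excision between days 18 and 22, whereas the methods of the study give a partly earlier range for this experiment, and which of them holds for these libraries was not settled. CD4+ T cells were isolated with kits from leukocytes collected on a percoll gradient.

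NF-κB is a family of dimers built from p50 (from *Nfkb1*), p52 (from *Nfkb2*), c-Rel, RelA and RelB. In resting cells, inhibitors of the IκB family hold the dimers in the cytoplasm. Signals from the T cell receptor and from TNF family, interleukin-1 and Toll-like receptors activate the IκB kinases, the inhibitor is degraded and the dimers enter the nucleus. NF-κB then induces several of its own inhibitors, among them IκBα (*Nfkbia*) and the ubiquitin-editing enzyme A20 (*Tnfaip3*), and so limits its own activity. In T cells, c-Rel is known for its part in interleukin-2 expression and in the development of regulatory T cells.

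Total counts per library were between 11823908 and 13943237. The targeted gene *Acvr1b* had 426 and 342 counts in the WT libraries against 322 and 445 in the CD4/ALK4-KO libraries, a log2 fold change of 0.16 (SE, standard error, 0.24, adjusted p = 0.66, edgeR), and -2.18 on the T cell receptor scale described below. Which exons are deleted is not given in the sources used here, and over the whole gene the counts did not separate the labels, so directions refer to the labels. *Cd4*, the gene of the selected surface protein, had 759 and 649 counts in the WT libraries against 3654 and 4033 in the CD4/ALK4-KO libraries (log2 fold change 2.62, adjusted p = 2.8e-08, with 0.27 on that other scale). Markers of T cells differed between the labelled genotypes. All 16 T cell markers rose, with a median log2 fold change of 2.40, and their summed level was 547 to 607 CPM (the count of a gene relative to all counts of its library, with library sizes adjusted by the TMM method of edgeR) in the WT libraries and 3060 to 3086 CPM in the CD4/ALK4-KO libraries. All 9 B cell markers rose as well (summed 65.6 to 78.3 CPM against 251 to 492 CPM), as did all 6 markers of CD8+ T and NK cells (112 to 154 CPM against 483 to 564 CPM). Of 10 macrophage markers, 1 rose and none fell (summed 6286 to 7143 CPM against 5811 to 6091 CPM), of 8 neutrophil markers 2 rose (947 to 1465 CPM against 965 to 1526 CPM), of 6 dendritic cell markers 3 rose and 1 fell (78.3 to 79.1 CPM against 98.1 to 143 CPM), of 8 epithelial markers 2 rose and 4 fell (864 to 869 CPM against 420 to 565 CPM), and of 7 stromal and endothelial markers 1 rose and 2 fell (4107 to 4180 CPM against 2701 to 2953 CPM). Of all these markers, only the epithelial *Nkx2-1* had 0 counts in any library. The libraries thus held transcripts of several cell types beside those of T cells, and in such bulk samples fewer cells of a type and less RNA per cell cannot be told apart. Each comparison is therefore also given on a second scale, the T cell receptor (TCR) scale, with libraries scaled to the summed counts of 7 genes of T cell receptor signaling (*Cd3d*, *Cd3e*, *Cd3g*, *Cd247*, *Lck*, *Zap70* and *Lat*). All 7 are among the 16 T cell markers. A rise smaller than the marker median and a value below 0 on the TCR scale therefore largely restate each other. The shift between the scales was -2.36 (log2, median over all genes). How far the other cell types contributed to the values below was not tested.

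To show the elements through which NF-κB can act on its own regulators, the promoters of the NF-κB genes were searched for the κB consensus, the DNA motif bound by NF-κB dimers, on both strands. RefSeq promoter windows of GRCm38.p6, which run from 250 bases before to 50 bases after a transcription start, were found for 8 of the 10 genes and not for *Nfkb1* and *Relb*. The motif was present in 7 of these 8 genes and in 9 of their 13 windows, against 8.46% of all 32851 windows and 9.55% of all 27025 genes with a window. *Rela* had no match in its window. The sequences are printed along the gene with 10 bases on each side, and the capitals mark the match:
*Tnfaip3*, chr10:19015403-19015432, minus strand, match from 12 bases before a start: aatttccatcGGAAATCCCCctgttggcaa
*Nfkbid*, chr7:30422170-30422199, plus strand: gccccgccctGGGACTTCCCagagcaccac
*Nfkbid*, chr7:30422215-30422244, plus strand: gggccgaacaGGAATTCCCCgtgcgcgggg
*Nfkbia*, chr12:55492657-55492686, minus strand, match from 29 bases before the start: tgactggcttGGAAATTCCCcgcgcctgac
*Nfkbie*, chr17:45555584-45555613, plus strand, match from 106 bases before the start: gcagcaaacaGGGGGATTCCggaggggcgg
*Rel*, chr11:23771042-23771071, minus strand, match from 92 bases before the start: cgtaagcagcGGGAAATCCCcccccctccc
*Nfkb2*, chr19:46305695-46305724, plus strand: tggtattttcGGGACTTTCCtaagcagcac
*Bcl3*, chr7:19822734-19822763, minus strand, match from base 3 of the transcript: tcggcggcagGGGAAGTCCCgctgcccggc
Not printed are 1 further match in *Tnfaip3*, 1 in *Rel*, which overlaps the printed one, and 4 in *Nfkb2*. A match is a description of the sequence and not evidence that the site was bound.

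All 10 genes passed the expression filter, and their log2 fold changes were compared over the 13919 genes tested. On the TMM scale 5 of them, *Tnfaip3*, *Nfkbid*, *Rel*, *Nfkbie* and *Nfkb1*, rose in the CD4/ALK4-KO libraries and 0 fell, whereas on the TCR scale 0 rose and all 10 fell (edgeR's quasi-likelihood test). Among all genes tested, 17.4% rose and 15.4% fell on the TMM scale, and 0.194% rose and 93.3% fell on the TCR scale. At an unadjusted p under 0.05, 6 rose and 0 fell on the TMM scale and 0 rose on the other, while DESeq2 called 5 higher and 0 lower. The median log2 fold change of the 10 genes was 0.60 on the TMM scale, against -0.0082 over all genes tested, and -1.75 on the TCR scale. All 10 values were above 0 on the TMM scale, and both CD4/ALK4-KO libraries lay above both WT libraries for 7 of the 10 genes, as they did for 32.7% of all genes tested, whereas both lay below for 0 of the 10, against 34% of all genes tested. Without WT replicate 1, or without WT replicate 2, 3 genes were called higher on the TMM scale, and *Tnfaip3*, *Nfkbid* and *Rel* were called whichever library was left out.

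**Figure D1:**
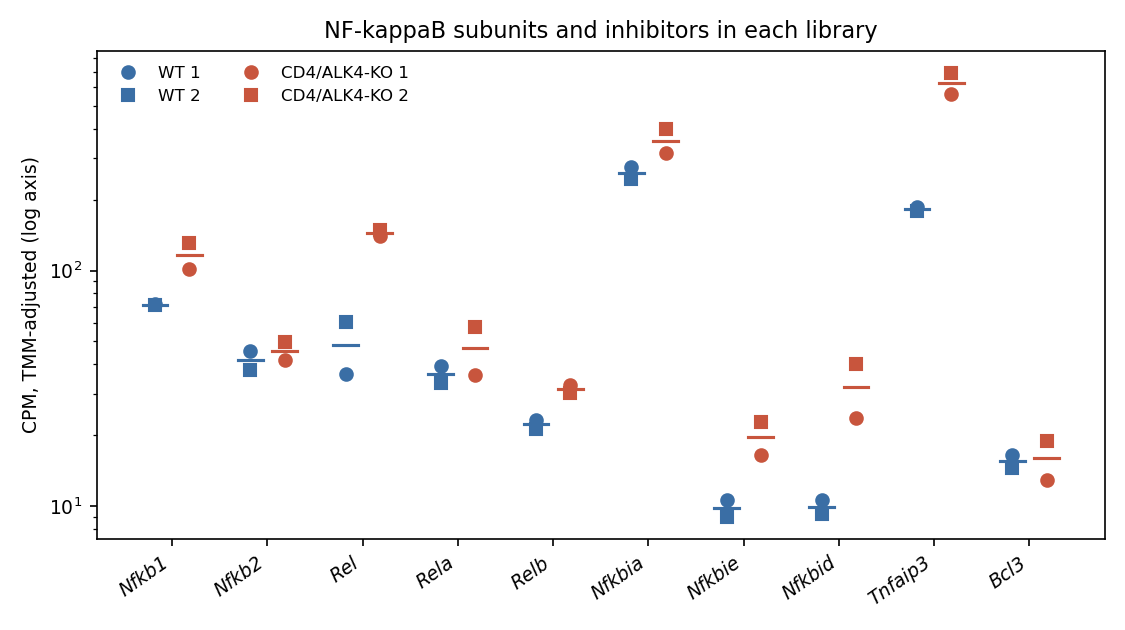
Level of each gene in CPM (TMM-adjusted, log axis) in the 2 WT libraries (blue) and the 2 CD4/ALK4-KO libraries (red), with circles for replicate 1, squares for replicate 2 and short lines for the means. *Tnfaip3* and *Rel* show wide gaps between the genotypes on this scale, while the points of *Nfkb2*, *Rela* and *Bcl3* overlap, and on the TCR scale all 10 genes were lower in CD4/ALK4-KO.

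Among the inhibitors, *Tnfaip3* was the gene with the largest rise on the TMM scale. *Tnfaip3* (chromosome 10, 19000910 to 19015657, GRCm38) encodes A20, which removes activating ubiquitin chains from signaling intermediates upstream of the IκB kinases. It had 2564 and 2415 counts in the WT libraries and 6712 and 8547 in the CD4/ALK4-KO libraries, or 187 and 178 CPM against 563 and 692 CPM. The CD4/ALK4-KO libraries were each above both WT libraries, with means of 183 ± 6.05 CPM and 627 ± 90.7 CPM (SD, n = 2). Its log2 fold change was 1.78 (SE 0.22, adjusted p = 2.6e-06), which is 3.44-fold, and it stayed below the median of the T cell markers, so that on the TCR scale it was at -0.57 (adjusted p = 0.031).

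*Nfkbid* (chromosome 7, 30421732 to 30428746) encodes IκBNS, a nuclear IκB protein that acts on promoters and is known in lymphocytes for its part in *Il2* and *Foxp3* expression. It was a low gene, with 10.6 and 9.23 CPM in the WT libraries against 23.7 and 40.3 CPM in the CD4/ALK4-KO libraries. CD4/ALK4-KO replicate 2 was the highest library, and the summed B cell markers were also higher there, 492 CPM against 251 CPM in CD4/ALK4-KO replicate 1, although their part in the value was not tested. The log2 fold change of *Nfkbid* was 1.69 (SE 0.29, adjusted p = 0.00012), and leaving out CD4/ALK4-KO replicate 2 gave 1.24, leaving out replicate 1 of that genotype 2.05. On the TCR scale it was at -0.65 (adjusted p = 0.047).

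*Nfkbie* (chromosome 17, 45555703 to 45563169) encodes IκBε, a cytoplasmic inhibitor with a preference for dimers of RelA and c-Rel. It had 145 and 122 counts in the WT libraries against 196 and 282 in the CD4/ALK4-KO libraries, or 10.6 and 9.01 CPM against 16.4 and 22.8 CPM. The groups did not overlap, and the log2 fold change was 1.00 (SE 0.29, adjusted p = 0.0095), against -1.34 on the TCR scale. Without WT replicate 1 (adjusted p = 0.068) or WT replicate 2 (adjusted p = 0.14) the rise on the TMM scale was not past the threshold.

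*Nfkbia* (chromosome 12, 55489410 to 55492647) encodes IκBα, the classical inhibitor that holds RelA and p50 in the cytoplasm. Per kilobase of exon it was the most abundant of the 10 genes in every library, with 175 and 155 CPM per kb in the WT libraries and 200 and 253 CPM per kb in the CD4/ALK4-KO libraries. In CPM it had 276 and 245 against 315 and 399. The CD4/ALK4-KO libraries were both higher, but the log2 fold change of 0.46 (SE 0.22) did not pass the threshold (adjusted p = 0.12), and its 95% interval ran from 0.023 to 0.89 before adjustment over genes. The unadjusted p of edgeR's quasi-likelihood test was 0.0504, so this normal interval is narrower than the test implies. Leaving out CD4/ALK4-KO replicate 1 gave 0.65 (adjusted p = 0.0023) and leaving out replicate 2 of that genotype 0.27 (adjusted p = 0.26), and on the TCR scale *Nfkbia* was at -1.89.

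*Bcl3* (chromosome 7, 19808462 to 19822770) encodes a nuclear IκB protein that binds p50 and p52 homodimers. Its 16.5 and 14.6 CPM in the WT libraries lay between the 12.9 and 18.9 CPM of the CD4/ALK4-KO libraries. The log2 fold change was 0.039 (SE 0.28, adjusted p = 0.94), with a 95% interval from -0.51 to 0.59, and leaving out CD4/ALK4-KO replicate 2 gave -0.27, leaving out replicate 1 of that genotype 0.32, and leaving out WT replicate 2 gave -0.056. The TCR scale put it at -2.30, the lowest of the 10 genes.

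Because the ratio of a pair of genes within a library does not depend on how libraries are scaled, 2 pairs of inhibitors were also compared. The genes were chosen with earlier results of these data known, and the other pairs of inhibitors are not given. There were 0.677 and 0.730 *Tnfaip3* counts per *Nfkbia* count in the WT libraries and 1.79 and 1.74 in the CD4/ALK4-KO libraries. *Nfkbid* gave 1.01 and 1.02 counts per *Nfkbie* count in the WT libraries and 1.44 and 1.77 in the CD4/ALK4-KO libraries. Both ratios were higher in each CD4/ALK4-KO library than in each WT library on any scale. How often pairs of genes in general separate the labels in this way was not computed. The higher ratios restate the larger rises of *Tnfaip3* and *Nfkbid* given above, as the same counts enter both. How far the mix of cell types contributed to them was not tested. With 2 libraries per genotype, an exact two-sided permutation test of such a ratio cannot give a p below 0.333. The matches to the κB consensus printed above lay both in inhibitors that rose on the TMM scale (*Tnfaip3*, *Nfkbid*, *Nfkbie*) and in inhibitors that did not pass the threshold there (*Nfkbia*, *Bcl3*). All of these inhibitors had a match, so none without a match was there to compare.

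**Figure D2:**
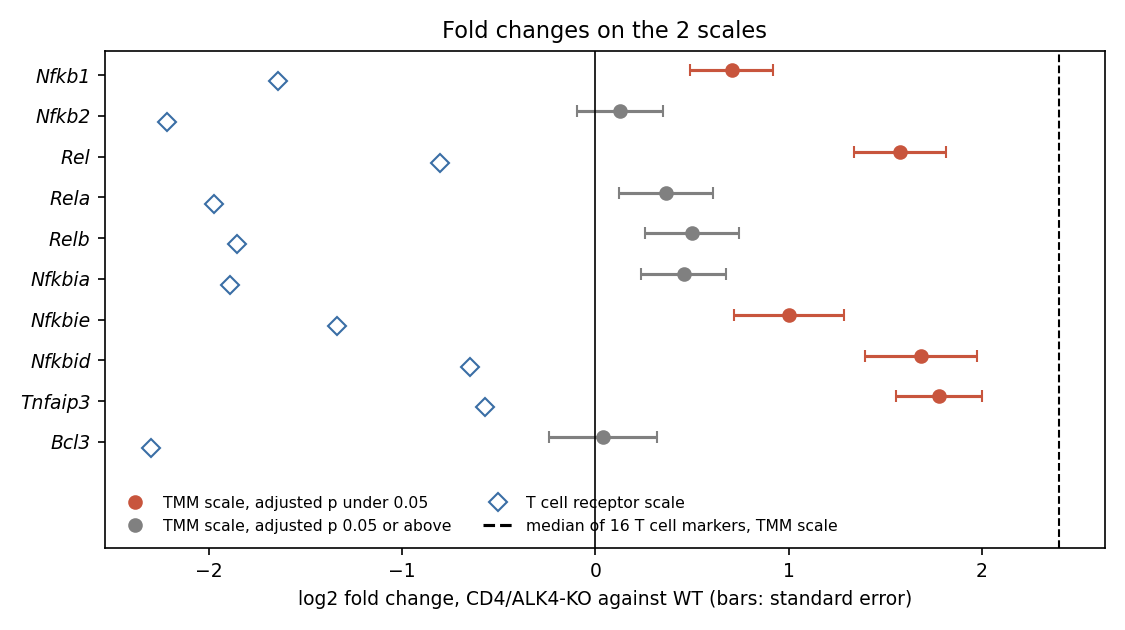
Log2 fold change of each gene between CD4/ALK4-KO and WT on the TMM scale (circles with standard errors, red where the adjusted p was under 0.05) and on the TCR scale (open diamonds). All circles lie between 0 and the dashed line, the median of 16 T cell markers at 2.40 on the TMM scale, and all diamonds lie below 0.

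Among the subunits, the rise was largest for *Rel* on the TMM scale. *Rel* (chromosome 11, 23736847 to 23770970) encodes c-Rel, the subunit most restricted to lymphoid and myeloid cells. It had 497 and 822 counts in the WT libraries and 1673 and 1837 in the CD4/ALK4-KO libraries, or 36.2 and 60.7 CPM against 140 and 149 CPM. The WT libraries differed from each other more than the CD4/ALK4-KO libraries did, and the groups did not overlap. The log2 fold change was 1.58 (SE 0.24, adjusted p = 2.8e-05), ran from 1.24 without WT replicate 1 to 1.99 without WT replicate 2, and was -0.80 on the TCR scale (adjusted p = 0.0026).

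*Nfkb1* (chromosome 3, 135584655 to 135691547) encodes p105, the precursor of p50. It had 72.1 and 71.1 CPM in the WT libraries against 102 and 131 CPM in the CD4/ALK4-KO libraries. The groups did not overlap, the log2 fold change was 0.71 (SE 0.22, adjusted p = 0.015), and on the TCR scale it was -1.65. When WT replicate 1 (adjusted p = 0.18) or WT replicate 2 (adjusted p = 0.17) was left out, the rise on the TMM scale was no longer past the threshold.

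The other subunits did not pass the threshold on the TMM scale, and all of them were lower on the TCR scale. *Relb* (chromosome 7, 19606217 to 19629438), the main partner of p52 in the non-canonical pathway, had 23.1 and 21.3 CPM in the WT libraries and 32.8 and 30.1 CPM in the CD4/ALK4-KO libraries. These groups did not overlap, and the log2 fold change was 0.50 (SE 0.24, adjusted p = 0.12). *Rela* (chromosome 19, 5637483 to 5648130), the strong activator of the classical p50 and RelA dimer, had 39.5 and 33.4 CPM against 36.0 and 57.9 CPM. Its log2 fold change of 0.36 (SE 0.24, adjusted p = 0.26) rested on CD4/ALK4-KO replicate 2, as it was -0.023 without that library, and 0.70 when CD4/ALK4-KO replicate 1 was dropped (adjusted p = 0.0094). *Nfkb2* (chromosome 19, 46304320 to 46312385), which encodes p100, both an inhibitor and the precursor of p52, had 45.6 and 38.0 CPM against 41.6 and 49.6 CPM, and a log2 fold change of 0.13 (SE 0.22, adjusted p = 0.71). Leaving out CD4/ALK4-KO replicate 2 gave -0.013, and leaving out WT replicate 2 gave -0.0078. Exons of *Nfkb2* overlap those of *AC114539.1* by 531 bases and those of *Psd* by 299 bases, both on the opposite strand, and those of *Bcl3* overlap the antisense gene *Gm16175* by 55 bases. Since the library kit does not mark strand, reads from such stretches cannot be told apart.

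Compared per kilobase of exon, the order of the subunits differed between the labelled genotypes. *Nfkb1* had the highest level in every library, with 17.5 and 17.2 CPM per kb in the WT libraries and 24.7 and 31.9 CPM per kb in the CD4/ALK4-KO libraries. *Rel* had the lowest level in both WT libraries, 4.85 and 8.13 CPM per kb, whereas in CD4/ALK4-KO it had 18.8 and 19.9 CPM per kb. *Rela* had 14.5 and 12.3 against 13.3 and 21.3 CPM per kb, so that *Rel* and *Rela* overlapped in CD4/ALK4-KO. *Nfkb2* (10.8 and 8.99 CPM per kb) and *Relb* (10.5 and 9.65 CPM per kb) overlapped in the WT libraries, whereas in CD4/ALK4-KO *Relb* (14.8 and 13.6 CPM per kb) was above *Nfkb2* (9.84 and 11.8 CPM per kb). The length of *Nfkb2*, 4221 bases, includes the 531 and 299 bases that overlap genes on the opposite strand. How reads from these stretches were counted is not known, so the order of *Nfkb2* and *Relb* may depend on it. The same lengths enter the shares below.

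Expressed as a share of the summed counts per kilobase of the 5 subunits within a library, which is independent of scaling, *Rel* made up 8.35% and 14.4% in the WT libraries and 23.1% and 20.2% in the CD4/ALK4-KO libraries. *Nfkb2* made up 18.6% and 16% against 12.1% and 11.9%. The shares of these genes did not overlap between the labelled genotypes. In CPM, both CD4/ALK4-KO libraries lay above both WT libraries for 32.7% of all genes tested and below for 34%. These percentages are for single genes, and no such background was computed for shares of 5 genes. The 5 shares of a library add to a fixed whole, so a larger *Rel* share by itself lowers the others. *Nfkb1* had 30.1% and 30.6% against 30.4% and 32.4%, *Rela* 25.0% and 21.8% against 16.3% and 21.6%, and *Relb* 18.0% and 17.1% against 18.2% and 13.8%. The shares of *Rela* did not overlap either, although its nearest values, 21.8% and 21.6%, differed by less than those of the WT libraries did. In counts, there were 0.917 and 1.82 *Rel* counts per *Rela* count in the WT libraries and 3.90 and 2.57 in the CD4/ALK4-KO libraries.

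**Figure D3:**
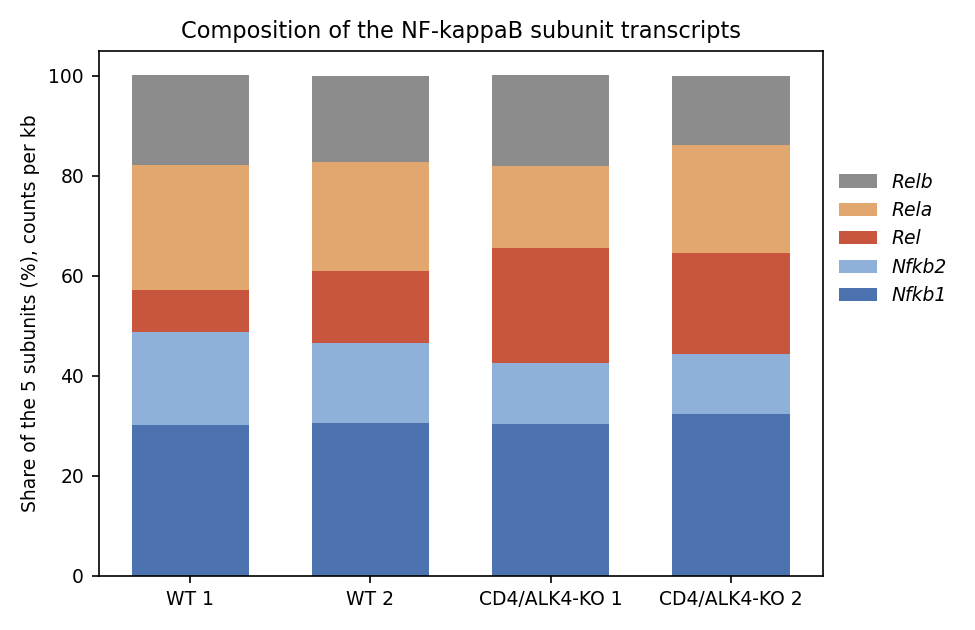
Share of each subunit in the summed counts per kilobase of the 5 subunits (percent, stacked bars from 0) in each library. The *Rel* segment covers 8.35% and 14.4% in the WT libraries and 23.1% and 20.2% in the CD4/ALK4-KO libraries, and the *Nfkb2* segment is smaller in the latter.

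Set against T cell receptor signaling transcripts, each of the 10 genes was less abundant in both CD4/ALK4-KO libraries than in both WT libraries, as were 95.6% of all genes tested, so that this order is near the background of all genes. *Tnfaip3* had 61.5 and 67.3 counts per 100 counts of the 7 T cell receptor genes in the WT libraries and 37.3 and 49.4 in the CD4/ALK4-KO libraries. *Nfkbia* had 90.7 and 92.2 against 20.9 and 28.5, and *Rela* 13 and 12.6 against 2.39 and 4.13. For *Rel*, the values were closer, 11.9 and 22.9 in the WT libraries and 9.31 and 10.6 in the CD4/ALK4-KO libraries. *Nfkbid*, with 3.50 and 3.48 against 1.57 and 2.88, also had close values. The genes with the smallest falls on this scale, *Tnfaip3*, *Nfkbid* and *Rel*, were thus those with the largest rises on the TMM scale, as the same counts enter both.

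The genes through which NF-κB is activated were examined as a list of 30 signaling genes, on which 20 rose and 0 fell on the TMM scale, with a median log2 fold change of 0.73, whereas 0 rose and 25 fell on the TCR scale. At an unadjusted p under 0.05, 22 rose and 0 fell on the TMM scale and 0 rose on the other, and DESeq2 called 17 higher and 0 lower. Among all genes tested, 17.4% rose and 15.4% fell on the TMM scale, and 0.194% rose and 93.3% fell on the TCR scale (edgeR, adjusted). *Prkcq*, the protein kinase C isoform that carries the T cell receptor signal to NF-κB, had 21.3 ± 5.23 CPM in the WT libraries and 140 ± 14.8 CPM in the CD4/ALK4-KO libraries, a log2 fold change of 2.72 (SE 0.24, adjusted p = 3.3e-08), and 0.35 on the TCR scale. Of 2 further genes of the T cell receptor arm, which were singled out after their values were seen, *Malt1* was at 1.88 (adjusted p = 1.1e-06) and *Bcl10* at 0.30 (adjusted p = 0.30). On the TCR scale *Malt1* was at -0.47, not past the threshold (adjusted p = 0.081), and *Bcl10* at -2.07 (adjusted p = 8.3e-14, edgeR). The IκB kinase genes also differed in value. *Chuk* (IKKα), one of the most abundant genes of the list, was at 0.38 (adjusted p = 0.21), whereas *Ikbkb* (IKKβ), likewise singled out after its value was seen, was at 1.35 (adjusted p = 6.2e-05), although on the TCR scale both were below 0. *Chuk* depended on which CD4/ALK4-KO library was kept, with 0.63 when replicate 2 was left out (adjusted p = 0.0061) and 0.098 when replicate 1 was (adjusted p = 0.74). *Tab2*, an adaptor of the kinase TAK1, was at 0.59 (adjusted p = 0.033) and at -1.77 on the TCR scale. When WT replicate 1 or WT replicate 2 was left out, 9 signaling genes were called higher on the TMM scale, and *Tab2* was no longer among them (adjusted p = 0.33 and 0.24).

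A list of 15 other inhibitors and regulators had a median log2 fold change of 0.24 on the TMM scale and -2.15 on the TCR scale. On the TMM scale 2 rose, 2 fell and 11 did not pass the threshold, and all 15 fell on the TCR scale. Of all genes tested, 17.4% rose and 15.4% fell on the TMM scale, and 93.3% fell on the TCR scale. The counts of this list are near those shares. *Cyld*, a deubiquitinase that opposes IκB kinase activation, had 131 ± 18.6 CPM in the WT libraries and 297 ± 49.0 CPM in the CD4/ALK4-KO libraries, a log2 fold change of 1.18 (SE 0.23, adjusted p = 0.00034), and -1.19 on the TCR scale. *Tnip1*, which encodes the A20-binding protein ABIN1, was at 0.72 (adjusted p = 0.039) and at -1.62 on the TCR scale. Leaving out CD4/ALK4-KO replicate 2 gave 0.23 and leaving out replicate 1 gave 1.11, and its call was also lost when WT replicate 1 or WT replicate 2 was left out (adjusted p = 0.18 and 0.24). Of the genes that fell on the TMM scale, *Commd1*, which promotes the removal of RelA from chromatin, was at -0.91 (adjusted p = 0.0022) and *Pdlim2*, a nuclear ubiquitin ligase for RelA, at -0.71 (adjusted p = 0.023). The call of *Pdlim2* was lost without WT replicate 1 (-0.54), WT replicate 2 (-0.87) or CD4/ALK4-KO replicate 1 (-0.43), and it was at -1.01 without CD4/ALK4-KO replicate 2. *Tax1bp1*, an adaptor of A20 and the most abundant gene of the list by CPM, was at -0.24 (adjusted p = 0.45) on the TMM scale, at -0.51 without CD4/ALK4-KO replicate 1 (adjusted p = 0.018) and at 0.0023 without CD4/ALK4-KO replicate 2. When WT replicate 1 or WT replicate 2 was left out, 1 gene of the list was called higher and 1 lower, and without CD4/ALK4-KO replicate 1, 5 were called higher.

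Of 22 receptors and ligands that feed into NF-κB, 12 rose and 2 fell on the TMM scale, against 17.4% and 15.4% of all genes tested. On the TCR scale 0 rose and 14 fell, against 0.194% and 93.3% of all genes tested. The largest rises on the TMM scale were those of *Tnfrsf13c*, the BAFF receptor of B cells, with 16 and 9 counts in the WT libraries against 50 and 142 in the CD4/ALK4-KO libraries (log2 fold change 3.09, SE 0.53, adjusted p = 0.00010), and of *Lta*, which encodes lymphotoxin α, with 21 and 10 counts against 106 and 128 (3.07, SE 0.44, adjusted p = 1.3e-05). On the TCR scale they were at 0.78 and 0.75 and not past the threshold. *Il1rl1*, the receptor of interleukin-33, had 3845 and 1876 counts in the WT libraries against 826 and 797 in the CD4/ALK4-KO libraries, a log2 fold change of -1.65 (adjusted p = 0.00012), which was -1.06 without WT replicate 1. *Ltbr*, the lymphotoxin β receptor of myeloid and stromal cells, was at -0.89 (adjusted p = 0.0058), and like *Il1rl1* it also fell on the TCR scale, as most genes tested did. Without WT replicate 1, *Ltbr* was at -0.80 (adjusted p = 0.14) and 1 gene of the list was called lower, and without CD4/ALK4-KO replicate 1, 4 were. *Il1b*, the most abundant gene of the list by CPM and a product of myeloid cells, was at 0.51 (adjusted p = 0.078) on the TMM scale, and *Il1r1*, its receptor, at -0.42 (adjusted p = 0.17). Both passed the threshold when CD4/ALK4-KO replicate 1 was left out, at 0.72 and -0.76, and were at 0.31 (adjusted p = 0.17) and -0.14 (adjusted p = 0.60) when replicate 2 was.

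Targets of NF-κB were split by the cells in which they are best described. Of 16 targets described in lymphocytes, 15 passed the expression filter and the cytokine gene *Csf2*, with 4 to 16 counts, did not. On the TMM scale 9 rose and 1 fell, against 17.4% and 15.4% of all genes tested, and the median log2 fold change was 1.31. On the TCR scale 1 rose and 11 fell, against 0.194% and 93.3% of all genes tested. *Irf4*, a transcription factor induced by antigen receptor signals, had 5.29 ± 0.775 CPM in the WT libraries and 45.3 ± 15.1 CPM in the CD4/ALK4-KO libraries, a log2 fold change of 3.10 (SE 0.30, adjusted p = 8.3e-08). It was the gene that rose on the TCR scale, by 0.75 (adjusted p = 0.028, edgeR). *Irf4* had 34.6 CPM in CD4/ALK4-KO replicate 1 and 56.0 CPM in replicate 2. The summed B cell markers were also higher in replicate 2, 492 CPM against 251 CPM, and their part in the value was not tested. *Il2ra*, the α chain of the interleukin-2 receptor, had 7.85 ± 0.550 CPM against 61.8 ± 1.02 CPM, a log2 fold change of 2.98 (adjusted p = 2.5e-08), and 0.62 on the TCR scale (adjusted p = 0.051). The transcription factor genes *Irf1* and *Junb* were at 1.31 (adjusted p = 0.00011) and 0.47 (adjusted p = 0.093), and on the TCR scale at -1.04 and -1.87. *Bcl2l1*, which encodes the survival protein BCL-XL, was at -0.66 (adjusted p = 0.027), and on the TCR scale at -3.01. Without WT replicate 1 (-0.43) or WT replicate 2 (-0.87) *Bcl2l1* was not past the threshold on the TMM scale, whereas *Junb* passed it when CD4/ALK4-KO replicate 1 or replicate 2 was left out (0.52 and 0.45).

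Of 16 targets described in myeloid and tissue cells, 2 rose and 4 fell on the TMM scale, with a median log2 fold change of -0.27. Of all genes tested, 17.4% rose and 15.4% fell there. All 16 targets fell on the TCR scale, as did 93.3% of all genes tested. *Icam1*, an adhesion molecule of many cell types, was at 1.01 (adjusted p = 0.0023) and the neutrophil chemokine gene *Cxcl3* at 0.60 (adjusted p = 0.029), and on the TCR scale at -1.32 and -1.76. *Ccl2*, a monocyte chemokine gene, had 555 ± 16.3 CPM in the WT libraries and 311 ± 9.39 CPM in the CD4/ALK4-KO libraries, a log2 fold change of -0.83 (SE 0.21, adjusted p = 0.0044). *Vcam1*, an adhesion molecule of endothelial and stromal cells, was at -0.78 (adjusted p = 0.013), *Saa3*, an acute phase gene and the most abundant of the list by CPM, at -0.75 (adjusted p = 0.010), and *Ptgs2*, which encodes cyclooxygenase-2, at -0.39 (adjusted p = 0.16). *Ptgs2* was thus not called. The 4 genes called lower were *Ccl2*, *Vcam1*, *Saa3* and *Cxcl1* (-0.67, adjusted p = 0.018, edgeR), the last named only to complete the count. None of the 4 genes that fell on the TMM scale was called there without WT replicate 1 or without WT replicate 2, nor was *Cxcl3*, and *Icam1* was at 0.83 without WT replicate 2 (adjusted p = 0.095). The difference between the lists was not tested, and the summed T cell and B cell markers were higher and the summed stromal and epithelial markers lower in the CD4/ALK4-KO libraries, as given above. On the TMM scale no macrophage or neutrophil marker was called lower. Of the epithelial markers 2 rose and 4 fell there, and of the stromal and endothelial markers 1 rose and 2 fell.

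**Figure D4:**
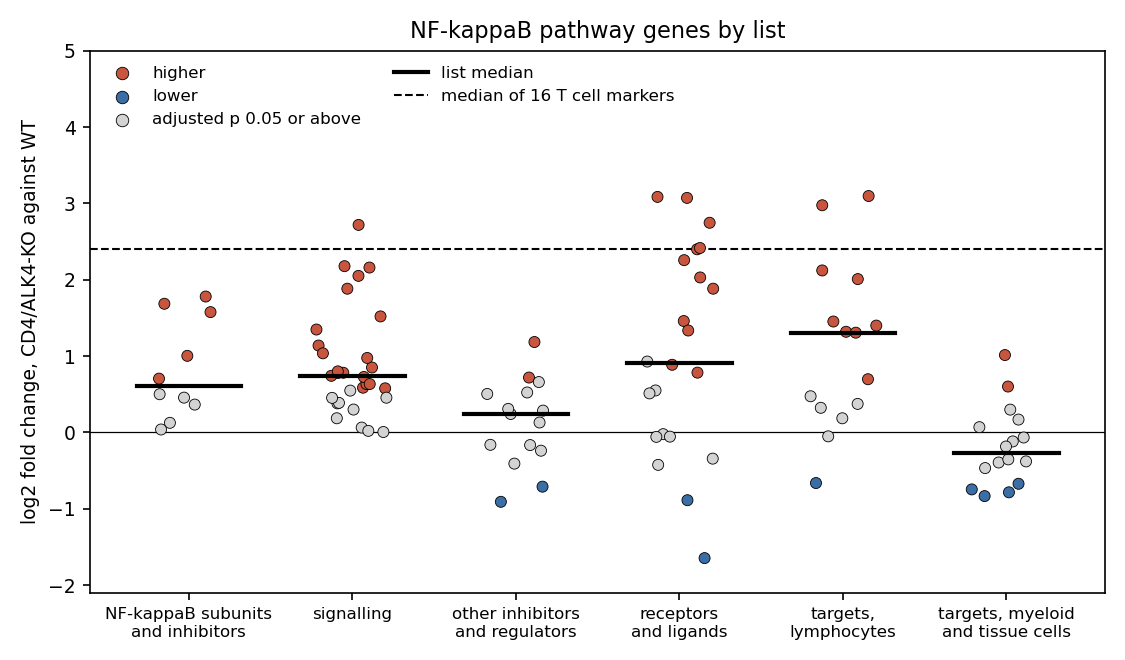
Log2 fold change between CD4/ALK4-KO and WT on the TMM scale for each gene tested, by list, with red for genes called higher, blue for genes called lower, grey for the others and bars for the list medians. The median is 0.60 for the NF-κB subunits and inhibitors, 1.31 for the targets described in lymphocytes and -0.27 for those described in myeloid and tissue cells, all below the dashed line at 2.40, the median of 16 T cell markers, and on the TCR scale the medians of all 6 lists are below 0.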

How the data were processed

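RNA-Seq libraries (TruSeq RNA v2, single-end reads) were analyzed in 4 samples, grouped by the genotype and replicate number in the sample titles. According to the methods and the processing notes, reads had been aligned by HISAT2 (mm10) and assigned to genes by htseq-count (intersection-nonempty), and the authors deposited the unnormalized counts per gene symbol. The annotation, the strand option and the versions are not given in the sources used here. Reads not assigned to genes were not used here. Replicates differed by more than sampling noise (chi-square per degree of freedom 17.1 in WT, 30.6 in CD4/ALK4-KO), so they were kept separate, and nothing states whether they came from separate mice beyond the word biological, so p-values measure the spread between these libraries only.

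Counts were tested with edgeR 4.0.16 in R 4.3.3 (filterByExpr, TMM, robust glmQLFit on genotype alone, quasi-likelihood F test), with Benjamini-Hochberg adjustment over the 13919 genes tested and a threshold of 0.05. Standard errors were obtained from the F statistic (|log2 fold change| over its root). Intervals are normal 95% intervals from these errors and are narrower than the F test implies. The script was tested on simulated data. Exon lengths and positions came from protein-coding transcripts of GENCODE M21 (GRCm38, the assembly of mm10), and promoter sequences from RefSeq, GRCm38.p6. The 10 genes and all lists were chosen with earlier results of these data known. From each pathway list, the named genes were the 2 largest rises and the 2 largest falls past the threshold with a mean of at least 50 counts, and the 2 with the highest mean CPM, and other names are marked in the text. The values of 1 gene that this rule names are not reported here. Alternatives were DESeq2 1.42.0 size factors, scaling to 7 T cell receptor genes, no filter on low counts, DESeq2's Wald test, the replicate number as a block, and each library left out in turn. A crossed block was added after seeing the data.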

Additional observations from a re-analysis of the deposited data

How the results depend on the processing

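With DESeq2's size factors and without a filter on low counts, each named gene kept its direction and its side of the threshold and no count moved by more than 1.5 times, and with DESeq2's Wald test this held for all but *Tnip1* (0.73, adjusted p = 0.055). On the T cell receptor scale, the genes called higher and lower were 0 and 10 for the NF-κB subunits and inhibitors (median -1.75), 0 and 25 for signaling, 0 and 15 for other inhibitors, 0 and 14 for receptors and ligands, 1 and 11 for lymphocyte targets, 0 and 16 for myeloid and tissue targets, and 27 and 12986 for all genes. There, *Acvr1b* was at -2.18, *Nfkb1* at -1.65, *Nfkb2* at -2.22, *Rel* at -0.80, *Rela* at -1.97, *Relb* at -1.85, *Nfkbia* at -1.89, *Nfkbie* at -1.34, *Nfkbid* at -0.65, *Tnfaip3* at -0.57 and *Bcl3* at -2.30. Of the other genes that changed sign there, *Chuk* was at -1.996, *Tab2* at -1.77, *Cyld* at -1.19, *Tnip1* at -1.62, *Il1b* at -1.85, *Junb* at -1.87, *Irf1* at -1.04, *Icam1* at -1.32, *Cxcl3* at -1.76, *Malt1* at -0.47, *Bcl10* at -2.07, *Ikbkb* at -1.01, *Lime1* at -0.53, *Cass4* at -0.61 and *Vav1* at -0.47, which follows from the division by T cell transcripts. Among these, *Malt1*, *Lime1*, *Cass4* and *Vav1* were not past the threshold on that scale. Leaving out each library in turn gave 3 to 7 higher and 0 lower NF-κB genes (median 0.53 to 0.80), 9 to 20 higher signaling genes, 1 to 5 higher and 1 to 2 lower other inhibitors, 1 to 4 lower receptors and ligands, 0 to 1 lower lymphocyte targets, 0 to 2 higher and 0 to 5 lower myeloid and tissue targets, and 1103 to 2923 higher and 754 to 2618 lower genes in all, with the lone library of a genotype assumed to vary like the others. *Acvr1b* ran from -0.065 to 0.39, *Nfkb2* from -0.013 to 0.28, *Rela* from -0.023 to 0.70, *Bcl3* from -0.27 to 0.32 and *Tax1bp1* from -0.51 to 0.0023. Same-numbered libraries did not deviate together (correlation -0.21 over genes). With 2 libraries per genotype, this cannot exclude that the numbers pair them. With the replicate block, 4 NF-κB genes were higher (*Nfkb1* at 0.69, adjusted p = 0.073), as were 11 signaling genes, 1 other inhibitor and 1 myeloid target, with 1 other inhibitor and 0 lymphocyte targets lower. *Tab2* (adjusted p = 0.15, edgeR), *Tnip1* (0.13), *Pdlim2* (0.062), *Bcl2l1* (0.10) and *Cxcl3* (0.13) were also not past the threshold with this block. With the crossed block, 7 NF-κB genes and 4 other inhibitors were higher.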

Other observations

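By the Euclidean distance between centered log2 CPM over the 4 libraries, the genes nearest to *Tnfaip3* among all genes tested were *Lime1* (distance 0.077, log2 fold change 1.81, adjusted p = 2.9e-06 in edgeR), *Cass4* (0.093, 1.73, adjusted p = 0.00053) and *Vav1* (0.10, 1.88, adjusted p = 1.1e-06). Scaled to the 7 T cell receptor genes, the respective values were -0.53, -0.61 and -0.47, none of them past the threshold. Only 4 libraries enter this distance, which all share the split by labelled genotype.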
